A study of Mus musculus with 12 samples.

Results

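Endothelial and angiogenesis genes were followed in RNA-seq libraries of mouse intestine: 10 genes, Esm1, Apln, Angpt2, Vegfa, Kdr, Flt1, Tek, Pecam1, Cdh5 and Eng, of the 54532 genes in each expression table. They were selected on measured values, since Esm1 was chosen by its small p in the tumor contrast, where it ranked 10 of 16743 genes tested. The other genes of the set joined it as tip cell genes, a ligand, receptors and general endothelial genes. Tumor values of all 10 are therefore a description without a test, and the crypt contrast, which took no part in the choice, was tested. In the study, ieCtnnb1, an enhancer that acts on Ctnnb1 in the intestine, was deleted from the germline, so that no cell of a knockout mouse carried it. Small intestinal crypts came from adult mice, 3 wild type and 3 ieCtnnb1KO. Colon tumors came from mice 5 months old, 3 APCmin/+ and 3 APCmin/+;ieCtnnb1KO, and both tumor groups carried the Min mutation in 1 Apc copy. Each library was a different mouse, and the mice had a C57BL/6 background. Crypts were released with EDTA and passed through a 70 µm filter without cell sorting, and tumors were taken as whole tissue, so each library is a mixture of cell types. Depth was between 14457896 and 16156712 fragments on genes over the 12 libraries. By Xist, replicate 3 of APCmin/+ (113.9 FPKM) and replicate 3 of APCmin/+;ieCtnnb1KO (61.4 FPKM) were from female mice, and the other 10 libraries were from male mice.

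New vessels grow from endothelial cells that leave an existing vessel. Tip cells lead the sprout and answer VEGF-A through its receptor KDR, while FLT1 binds the same ligand and holds most of it back, and angiopoietin 2 and TEK (TIE2) govern how firmly the vessel wall is kept together. Esm1 and Apln are known as marker genes of tip cells, whereas Pecam1, Cdh5 and Eng are made by endothelial cells in general, and the crypt epithelium itself has no vessels, which run in the stroma around it.

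Levels are given in FPKM, fragments per kilobase of gene scaled to depth, as the authors deposited them. Ctnnb1, the gene whose enhancer was deleted, is described first. In crypts Ctnnb1 stood at 120.6, 134.1 and 122.7 FPKM in wild type and at 101.7, 104.3 and 104.9 FPKM in ieCtnnb1KO. Every knockout library was below every wild type library, with a log2 fold change of -0.28 ± 0.12 (SE, n = 3 per group) and a limma adjusted p of 0.849. In tumors Ctnnb1 stood at 298.6, 363.5 and 358.0 FPKM in APCmin/+ and at 279.4, 248.4 and 250.2 FPKM in APCmin/+;ieCtnnb1KO. The groups were again apart, with the knockout lower by a log2 fold change of -0.39 ± 0.13 (SE, n = 3 per group).

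At an adjusted p under 0.05, limma called 0 of the 14176 genes tested in crypts (0%) and 0 of the 16743 tested in tumors (0%). At an unadjusted p under 0.05 the counts were 829 in crypts (5.85%) and 2421 in tumors (14.5%). With voom weights in limma the adjusted counts were also 0, with 805 genes in crypts and 2541 in tumors at an unadjusted p under 0.05. For this reason genes are described here by the values in each library, and "higher" or "lower" without overlap means that every knockout library lay on the same side of every control library. In tumors 1912 genes (11.4%) were higher and 1781 (10.6%) lower without overlap, together 3693 (22.1%). In crypts 963 genes (6.79%) were higher and 730 (5.15%) lower, together 1693 (11.9%).

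Promoter sequences were available for 7 of the 10 genes in the RefSeq set for GRCm38.p6, from 250 bases before to 50 bases after an annotated start site. Angpt2, Pecam1 and Cdh5 had no entry, and Vegfa had 2 entries, giving 8 sequences. The second Vegfa entry, chr17:46025114-46025413, lies inside the gene, whose start on the minus strand is at 46032369. Esm1, Apln, Flt1 and Eng are printed because their tumor groups did not overlap, and Kdr as 1 of the genes whose groups overlapped. They are written 5′ to 3′ on the strand of the gene, with the core of the hypoxia response element (ACGTG or GCGTG, searched on both strands) in capitals. The regions are chr13:113209409-113209708 on the plus strand for Esm1, chrX:48034804-48035103 on the minus strand for Apln, chr5:147725962-147726261 on the minus strand for Flt1, chr2:32646345-32646644 on the plus strand for Eng and chr5:75978406-75978705 on the minus strand for Kdr.
Esm1: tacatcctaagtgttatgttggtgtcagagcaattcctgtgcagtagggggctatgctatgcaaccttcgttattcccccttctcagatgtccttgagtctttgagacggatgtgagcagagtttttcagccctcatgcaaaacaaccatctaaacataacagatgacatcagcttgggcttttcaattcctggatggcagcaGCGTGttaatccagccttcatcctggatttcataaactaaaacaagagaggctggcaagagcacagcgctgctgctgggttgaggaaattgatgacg
Apln: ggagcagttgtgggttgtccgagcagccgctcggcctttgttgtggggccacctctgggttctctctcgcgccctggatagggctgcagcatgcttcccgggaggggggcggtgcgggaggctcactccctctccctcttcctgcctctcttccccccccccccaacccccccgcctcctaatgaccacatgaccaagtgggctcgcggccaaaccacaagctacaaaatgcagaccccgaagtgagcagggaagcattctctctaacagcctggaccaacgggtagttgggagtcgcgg
Flt1: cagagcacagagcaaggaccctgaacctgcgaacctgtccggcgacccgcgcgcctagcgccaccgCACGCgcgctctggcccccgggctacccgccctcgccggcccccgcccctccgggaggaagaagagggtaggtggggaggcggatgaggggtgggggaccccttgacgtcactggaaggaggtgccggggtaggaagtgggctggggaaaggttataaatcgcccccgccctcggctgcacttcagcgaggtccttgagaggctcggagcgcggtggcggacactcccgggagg
Eng: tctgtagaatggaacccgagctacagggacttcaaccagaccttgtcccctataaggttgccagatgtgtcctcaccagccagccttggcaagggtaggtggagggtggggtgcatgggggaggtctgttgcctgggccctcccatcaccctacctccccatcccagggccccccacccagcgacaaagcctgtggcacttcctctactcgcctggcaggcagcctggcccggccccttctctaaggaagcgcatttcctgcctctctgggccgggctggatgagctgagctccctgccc
Kdr: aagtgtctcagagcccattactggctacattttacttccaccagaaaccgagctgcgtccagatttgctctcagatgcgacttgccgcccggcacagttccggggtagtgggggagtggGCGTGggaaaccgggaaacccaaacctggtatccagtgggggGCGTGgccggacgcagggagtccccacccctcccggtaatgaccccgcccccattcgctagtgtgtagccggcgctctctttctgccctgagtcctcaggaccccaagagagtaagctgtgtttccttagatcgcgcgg

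The hypoxia core occurred in 4 of the 8 sequences, against 14380 (43.8%) of 32851 promoters of the same length. Esm1 had 1 match, whose first base lay at -47 from the gene start, Kdr had 2, at -131 and -89, and Flt1 had 1, at -184. The second Vegfa entry, which lies inside the gene and is counted among the 4, had 2 matches. The first Vegfa entry, Apln, Tek and Eng had 0. The ETS core GGAA, a motif of factors active in endothelial cells, was in 8 of 8 sequences and in 96% of all promoters. The TCF/LEF motif ATCAAAG, through which β-catenin acts on genes, was in 0 of 8 and in 3.73% of all promoters. These matches describe letters in a window and are not evidence of binding.

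Esm1 encodes endocan, a proteoglycan that tip cells secrete, and is listed as ENSMUSG00000042379 on chromosome 13, from 113209659 to 113218098 (GRCm38). In tumors Esm1 was at 2.15, 2.75 and 3.76 FPKM in APCmin/+ and at 7.41, 9.42 and 9.33 FPKM in APCmin/+;ieCtnnb1KO. All 3 knockout tumors lay above all 3 control tumors, and the lowest knockout library held 250 fragments of Esm1 against 118 in the highest control. On the scale of log2(FPKM + 0.5) the difference was 1.46 ± 0.20 (SE, n = 3 per group), a 2.76-fold higher level. As the gene was chosen by this contrast, its difference describes the choice and carries no test. Gzmk lies over Esm1 on the opposite strand, and its mean in tumors was 0.0675 FPKM.

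Apln encodes apelin, a secreted peptide of tip cells that acts on the receptor Aplnr of neighbouring endothelial cells. In tumors Apln was at 4.0, 2.50 and 3.04 FPKM in APCmin/+ and at 6.63, 12.1 and 7.94 FPKM in APCmin/+;ieCtnnb1KO. The groups were apart, and knockout replicate 2 stood above the other 2 knockout tumors. The log2 fold change was 1.33 ± 0.25 (SE, n = 3 per group), a 2.51-fold higher level. Its receptor gene Aplnr had a mean of 3.0 FPKM in tumors, and its log2 fold change was -0.07. Aplnr was the most abundant of the apelin genes other than Apln. Their summed level was 4.63, 4.43 and 1.65 FPKM in APCmin/+ and 2.03, 2.88 and 3.57 FPKM in APCmin/+;ieCtnnb1KO. Control replicate 3 was thus the lowest library, and the groups overlapped.

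Angpt2 encodes angiopoietin 2, which sprouting endothelium releases and which loosens the vessel wall. Its tumor levels were 7.50, 12.1 and 12.0 FPKM in APCmin/+ and 9.62, 7.77 and 12.7 FPKM in APCmin/+;ieCtnnb1KO. Control replicates 2 and 3 lay above knockout replicates 1 and 2 and below knockout replicate 3, so the groups overlapped, and the log2 fold change was -0.06 ± 0.24 (SE, n = 3 per group). Its sign was the opposite in 3 of the 12 alternative settings that can change it, at 0.05 without APCmin/+ replicate 2, 0.04 without APCmin/+ replicate 3 and 0.10 without knockout replicate 2, and it was -0.28 without APCmin/+ replicate 1.

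Vegfa encodes the ligand VEGF-A, is made by epithelial as well as stromal cells, and was the most abundant of the 10 genes in both tissues. In tumors it was at 31.0, 34.9 and 28.2 FPKM in APCmin/+ and at 45.3, 30.5 and 45.0 FPKM in APCmin/+;ieCtnnb1KO. Knockout replicates 1 and 3 were above every control, but knockout replicate 2 lay among the controls, and the log2 fold change was 0.34 ± 0.17 (SE, n = 3 per group). Without knockout replicate 2 it was 0.52, and after quantile normalization 0.21.

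**Figure D1:**
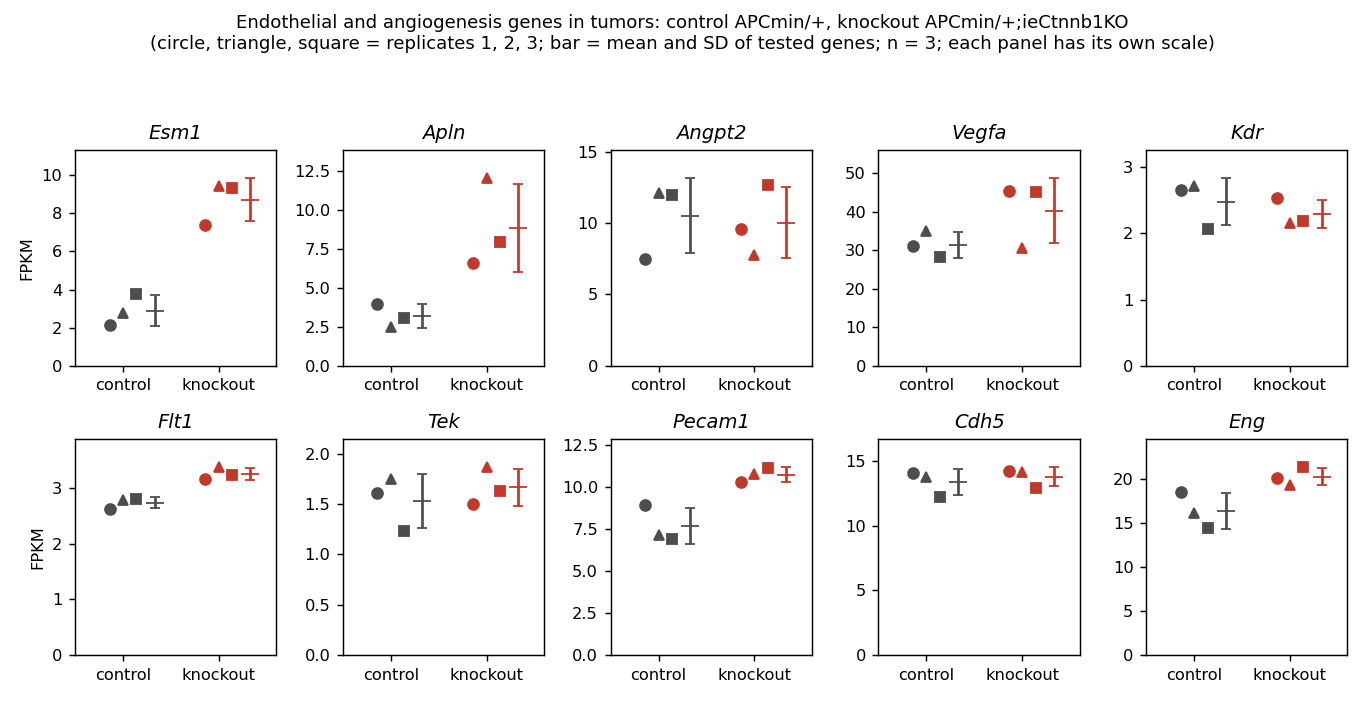
FPKM of the 10 genes in each tumor library, with the mean and SD of each group (n = 3) beside the points and a separate scale in each panel. Esm1 and Apln stand well apart between the groups, Flt1, Pecam1 and Eng stand apart by less, and Angpt2, Vegfa, Kdr, Tek and Cdh5 overlap.

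Among the receptors, Kdr encodes VEGFR2, through which VEGF-A drives sprouting. Kdr was at 2.65, 2.72 and 2.07 FPKM in APCmin/+ and at 2.54, 2.15 and 2.19 FPKM in APCmin/+;ieCtnnb1KO. The groups overlapped, with a log2 fold change of -0.09 ± 0.14 (SE, n = 3 per group), which was -0.03 without APCmin/+ replicate 2 and -0.19 without APCmin/+ replicate 3. Flt1 encodes VEGFR1, which binds the same ligand with high affinity and weak signaling. Flt1 was at 2.63, 2.79 and 2.80 FPKM in APCmin/+ and at 3.16, 3.37 and 3.23 FPKM in APCmin/+;ieCtnnb1KO, so all knockout tumors lay above all controls. The log2 fold change was 0.21 ± 0.11 (SE, n = 3 per group), a 1.16-fold higher level, and the spread within each group was small, with SDs of 0.0981 and 0.111 FPKM. Tek encodes the receptor of the angiopoietins and was at 1.61, 1.75 and 1.23 FPKM in APCmin/+ and at 1.5, 1.87 and 1.63 FPKM in APCmin/+;ieCtnnb1KO. Its groups overlapped, with a log2 fold change of 0.10 ± 0.16 (SE, n = 3 per group), and its sign was the opposite in 1 of those 12 settings, at -0.01 without APCmin/+ replicate 3.

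Pecam1 encodes an adhesion molecule at the contacts between endothelial cells. In tumors it was at 8.93, 7.15 and 6.93 FPKM in APCmin/+ and at 10.3, 10.8 and 11.1 FPKM in APCmin/+;ieCtnnb1KO. All knockout tumors were above all controls, by a log2 fold change of 0.47 ± 0.12 (SE, n = 3 per group), a 1.38-fold higher level. In bulk tissue, more cells of a type and more RNA per cell cannot be told apart, nor can fewer cells and less RNA per cell. Cdh5 encodes VE-cadherin, the cadherin of endothelial junctions, and was at 14.0, 13.8 and 12.2 FPKM in APCmin/+ and at 14.2, 14.1 and 12.9 FPKM in APCmin/+;ieCtnnb1KO. Its groups overlapped, with a log2 fold change of 0.04 ± 0.09 (SE, n = 3 per group), whose sign was the opposite in 1 of those 12 settings, at -0.02 without APCmin/+ replicate 3. Eng encodes endoglin, a co-receptor for BMP9 on endothelial cells, and was at 18.6, 16.2 and 14.5 FPKM in APCmin/+ and at 20.1, 19.4 and 21.4 FPKM in APCmin/+;ieCtnnb1KO. The groups were apart, with a log2 fold change of 0.30 ± 0.11 (SE, n = 3 per group). Fpgs lies over Eng on the opposite strand with a mean of 8.46 FPKM in tumors, and whether counting used the strand was not stated, so reads of Fpgs in the level of Eng cannot be told apart.

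In tumors all 10 genes passed the filter of a mean of 0.5 FPKM, 8 had a log2 fold change above 0 and 2 below, where 51.3% and 48.7% of all genes tested did. The groups did not overlap for 5 of the 10, all with the knockout higher, where 11.4% of all genes were higher without overlap and 22.1% were without overlap in either direction, and the median log2 fold change was 0.26 beside 0.01 for all genes tested. Since the tumor contrast chose the set, nothing is read from these counts.

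The members differed in level as well as in difference. Per length, the order of mean levels over the 6 tumors was Vegfa at 35.8 ± 7.55, Eng at 18.4 ± 2.57 and Cdh5 at 13.6 ± 0.824 FPKM (SD, n = 6). Then came Angpt2 at 10.3 ± 2.30, Pecam1 at 9.20 ± 1.83, Apln at 6.03 ± 3.64 and Esm1 at 5.80 ± 3.32 FPKM (SD, n = 6). The lowest were Flt1 at 3.0 ± 0.298, Kdr at 2.39 ± 0.281 and Tek at 1.6 ± 0.218 FPKM (SD, n = 6). The ranges over the 6 tumors did not overlap between Vegfa and Eng, Eng and Cdh5, or Kdr and Tek, and the other neighbours in the order overlapped. Angpt2 was above Pecam1 in 3 of 6 tumors, and Apln above Esm1 in 2 of 6. The order also depended on the group, since Angpt2 was above Pecam1 in the control means (10.53 and 7.67 FPKM) but below it in the knockout means (10.02 and 10.7 FPKM).

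To set the members against other endothelial genes, each log2 level was taken relative to the mean log2 level of the general endothelial genes of the same library, leaving out the member itself. That mean stood at 2.51, 2.49 and 2.28 in APCmin/+ and at 2.71, 2.66 and 2.79 in APCmin/+;ieCtnnb1KO, higher by 0.30 and without overlap. Relative to it, Esm1 was at -1.11, -0.79 and -0.19 in APCmin/+ and at 0.28, 0.65 and 0.50 in APCmin/+;ieCtnnb1KO. Esm1 was below the general endothelial mean in all 3 controls and above it in all 3 knockouts, a difference of 1.17. Apln, relative to the same mean, was at -0.34, -0.90 and -0.46 in APCmin/+ and at 0.13, 0.99 and 0.28 in APCmin/+;ieCtnnb1KO. Apln was also below the mean in the controls and above it in the knockouts, with a difference of 1.03. Since the tumor contrast chose the set, these values of Esm1 and Apln are a description, and nothing is read from them. Kdr, at -0.85, -0.80 and -0.92 in APCmin/+ and -1.1, -1.26 and -1.36 in APCmin/+;ieCtnnb1KO, was lower relative to that mean without overlap, by a difference of -0.38. Cdh5 was also lower relative to the mean without overlap, by -0.26, whereas the groups of Angpt2 (-0.36), Tek (-0.20), Flt1 (-0.08), Eng (0.01), Vegfa (0.04) and Pecam1 (0.18) overlapped on this relative scale. As the mean itself was higher by 0.30, a member whose own level did not change falls on this scale. The own levels of Kdr (-0.09) and Cdh5 (0.04) overlapped, so nothing is read from their lower relative values. Shares of all genes on this scale were not computed. The summed level of the general endothelial genes overlapped between the groups, and levels relative to that sum were not computed.

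**Figure D2:**
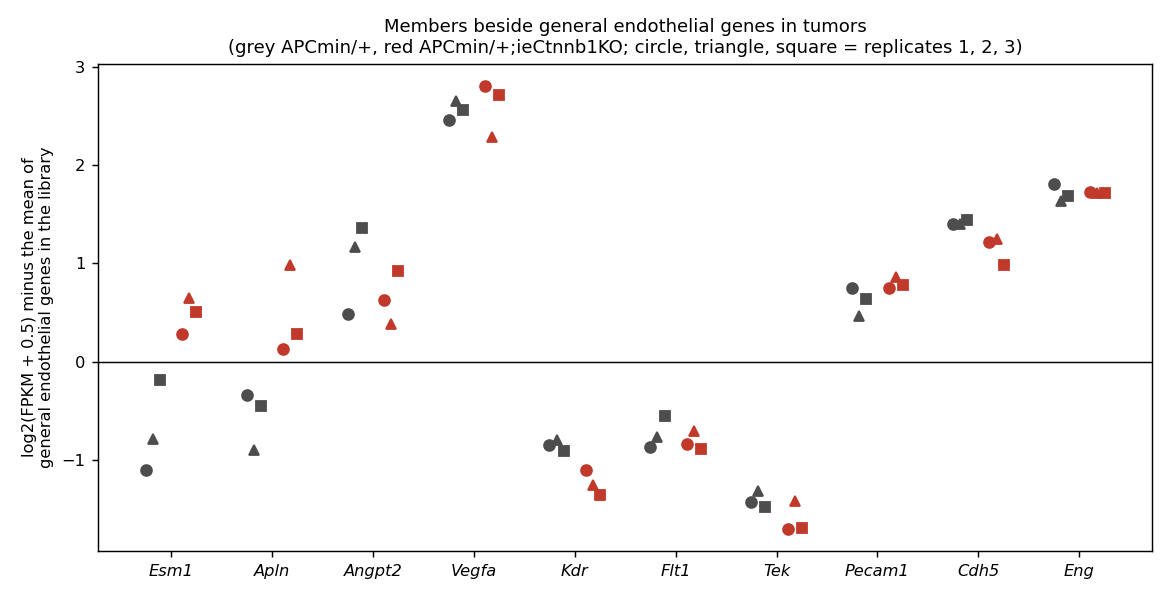
Log2(FPKM + 0.5) of each member minus the mean of the general endothelial genes in the same tumor library, by group and replicate; Pecam1, Cdh5 and Eng are left out of their own mean. Esm1 and Apln lie below 0 in the 3 APCmin/+ tumors and above 0 in the 3 APCmin/+;ieCtnnb1KO tumors. Kdr and Cdh5 are lower in the knockouts on this scale, whose reference mean was itself higher in the knockouts.

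The same FPKM values can also be set over a single endothelial gene, which adds no independent measurement. The ratio of Esm1 to Pecam1, as FPKM over FPKM, was 0.241, 0.384 and 0.543 in APCmin/+ and 0.722, 0.874 and 0.838 in APCmin/+;ieCtnnb1KO. All knockout ratios exceeded all control ratios, and over Cdh5 in place of Pecam1 the Esm1 ratio was 0.153, 0.199 and 0.309 against 0.520, 0.667 and 0.723. The ratio of Apln to Pecam1 was 0.448, 0.350 and 0.438 in APCmin/+ and 0.646, 1.12 and 0.714 in APCmin/+;ieCtnnb1KO, again without overlap. The ratio of Angpt2 to Pecam1 overlapped between the groups, at 0.840, 1.69 and 1.73 against 0.937, 0.721 and 1.14.

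The tip cell list held 11 genes, 3 of them members, and all 11 passed the filter in tumors. Of these, 7 were above 0 and 4 below, beside 51.3% and 48.7% of all genes tested, and 6 were higher without overlap and 0 lower, beside 11.4% and 10.6%. The median log2 fold change was 0.43, and 0.29 without knockout replicate 3. Without the members, 5 of 8 were above 0, 4 of 8 (Cxcr4, Adm, Nid2 and Pdgfb) were higher without overlap, and the median was 0.31. Cxcr4, a chemokine receptor of tip cells and of leukocytes, was at 8.40, 6.50 and 8.40 FPKM in APCmin/+ and at 10.1, 12.6 and 10.9 FPKM in APCmin/+;ieCtnnb1KO. All knockout tumors were above all controls for Cxcr4, with a log2 fold change of 0.51 ± 0.14 (SE, n = 3 per group). Kcne3, a potassium channel subunit, was the most abundant gene of the list with a mean of 86.6 FPKM, and its groups overlapped at a log2 fold change of -0.03 ± 0.22 (SE, n = 3 per group). Kcne3 also had a mean of 59.7 FPKM in crypts, where endothelial genes were low, so its level cannot be assigned to vessels. The same limit holds for the 8 genes of the list that passed the filter in crypts. Outside the members, 7 genes passed it, with a tumor median of 0.19, and 1 gene (Adm, 0.46) did not. This division was made after the values were seen, and nothing is read from it.

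General endothelial genes formed the larger list, with 27 genes that all passed the filter in tumors, 3 of them members. Of the 27, 23 were above 0 and 4 below, beside 51.3% and 48.7% of all genes tested, and 15 were higher without overlap and 1 lower, beside 11.4% and 10.6%. The median log2 fold change was 0.40 beside 0.01 for all genes tested. Without the members the counts were 20 and 4 of 24, with 13 higher and 1 lower without overlap and a median of 0.41. Leaving out each library in turn gave medians for these 24 genes between 0.30 and 0.43. Esam, a junctional adhesion molecule, was at 6.66, 6.76 and 4.66 FPKM in APCmin/+ and at 8.97, 9.09 and 11.1 FPKM in APCmin/+;ieCtnnb1KO. Its knockout tumors were all above its controls, by a log2 fold change of 0.66 ± 0.16 (SE, n = 3 per group). Adgrl4, an adhesion receptor of endothelial cells, was likewise apart, at 2.01, 2.04 and 2.28 FPKM against 3.61, 3.89 and 3.01 FPKM, and Myct1 was at 1.17, 0.703 and 0.823 FPKM against 1.20, 1.42 and 2.32 FPKM. The log2 fold changes were 0.61 ± 0.13 for Adgrl4 and 0.60 ± 0.25 for Myct1 (SE, n = 3 per group).

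Sox17, a transcription factor of arterial endothelium, was the 1 gene of the list that was lower without overlap. It was at 39.0, 42.9 and 32.3 FPKM in APCmin/+ and at 27.6, 20.4 and 23.7 FPKM in APCmin/+;ieCtnnb1KO. The log2 fold change was -0.66 ± 0.15 (SE, n = 3 per group), and Sox17 was at 0 in all 6 crypt libraries. Tumors were taken as whole tissue, so the level of Sox17 cannot be assigned to vessels. Ecscr was the most abundant gene of the list at a mean of 44.0 FPKM, and its groups overlapped at -0.19 ± 0.15 (SE, n = 3 per group). The summed level of the list overlapped between the groups, at 256.3, 247.7 and 215.9 FPKM in APCmin/+ and 266.1, 248.3 and 286.0 FPKM in APCmin/+;ieCtnnb1KO.

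**Figure D3:**
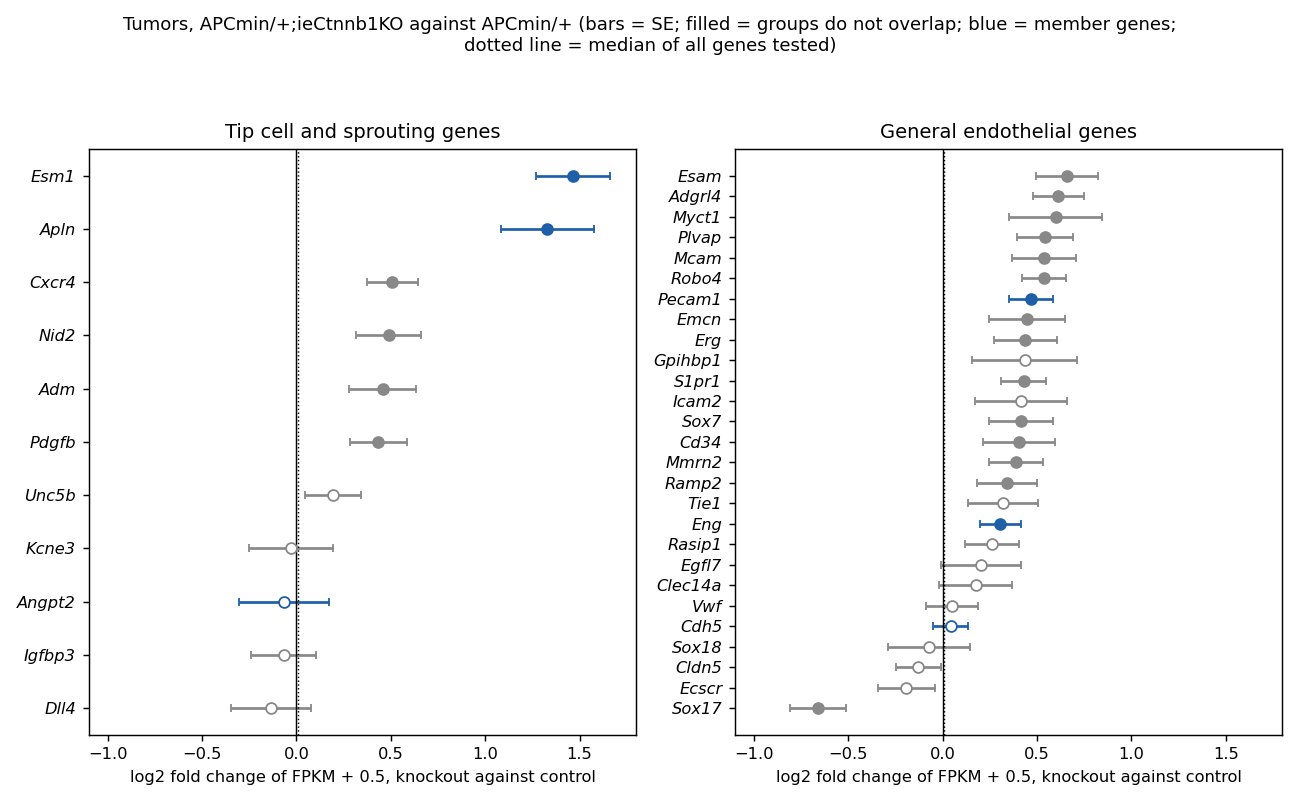
Log2 fold change with SE of each tip cell gene (left) and general endothelial gene (right) in tumors, knockout against control, n = 3 per group. Filled points mark groups that do not overlap, blue marks the member genes and the dotted line is the median of all genes tested; Esm1 and Apln lie farthest right and Sox17 farthest left.

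In crypts only 3 of the 10 members, Angpt2, Vegfa and Pecam1, passed the filter of a mean of 0.5 FPKM. Vegfa was at 12.6, 14.3 and 26.6 FPKM in wild type and at 11.1, 9.38 and 17.6 FPKM in ieCtnnb1KO. Replicate 3 was the highest library of both groups and the groups overlapped, with a log2 fold change of -0.45 ± 0.33 (SE, n = 3 per group), a limma adjusted p of 0.896 and an exact two-sided permutation p of 0.4. Without wild type replicate 3 the log2 fold change of Vegfa was -0.13, and without ieCtnnb1KO replicate 3 it was -0.70. With 3 libraries against 3 the smallest p of the exact permutation test is 0.1. Angpt2 was at 1.40, 1.63 and 1.11 FPKM in wild type and at 1.07, 1.18 and 0.926 FPKM in ieCtnnb1KO. Its groups overlapped, with a log2 fold change of -0.26 ± 0.18 (SE, n = 3 per group), a limma adjusted p of 0.896 and an exact permutation p of 0.2. Over the alternatives Angpt2 lay between -0.37 (without wild type replicate 3) and -0.17 (without wild type replicate 2). Mcph1 lies over Angpt2 on the opposite strand with a mean of 1.51 FPKM in crypts, so its reads in the level of Angpt2 cannot be told apart. Pecam1 was at 0.757, 0.693 and 0.594 FPKM in wild type and at 0.602, 0.537 and 0.640 FPKM in ieCtnnb1KO. It overlapped as well, with a log2 fold change of -0.11 ± 0.19 (SE, n = 3 per group), a limma adjusted p of 0.957 and an exact permutation p of 0.3. Over the alternatives Pecam1 lay between -0.20 (voom weights) and -0.035 (quantile normalization). Cdh5 and Flt1 had at most 1 fragment in any crypt library, so the level of Pecam1 in crypts cannot be assigned to vessels.

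The 3 tested members were all below 0 in crypts, where 52.8% of all genes were above 0 and 47.2% below, and 0 of the 3 were without overlap, beside 11.9% of all genes. Their median was -0.26, which became -0.01 when all 10 members were taken without a filter. The other 7 members rested on a few fragments in each library. Esm1 had 0, 2 and 2 fragments in wild type and 3, 2 and 1 in ieCtnnb1KO, and Cdh5 had 1 fragment in wild type replicate 2, 1 in ieCtnnb1KO replicate 3 and 0 in the others. Flt1 had 1 fragment over the 6 libraries, in wild type replicate 3. Kdr had 3, 1 and 3 fragments against 2, 3 and 0, Tek had 4, 16 and 8 against 2, 7 and 3, and Eng had 4, 4 and 8 against 11, 3 and 3. Apln was the best covered of the 7, with 6, 18 and 13 fragments in wild type and 24, 20 and 15 in ieCtnnb1KO. These 7 genes were not tested, and their groups overlapped.

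**Figure D4:**
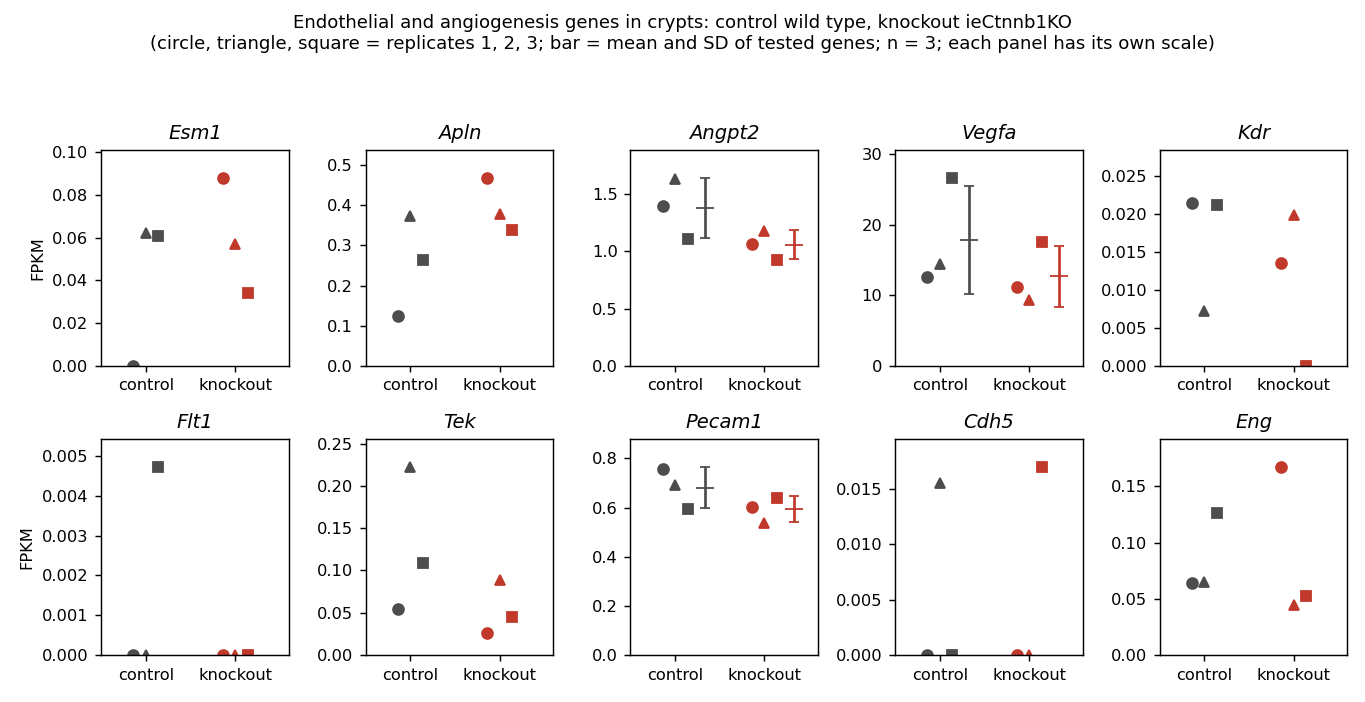
FPKM of the 10 genes in each crypt library, with the mean and SD of each group (n = 3) only for the 3 genes that passed the filter and a separate scale in each panel. The groups overlap for all 10 genes, and every member other than Vegfa, Angpt2 and Pecam1 has a mean under 0.5 FPKM.

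The tables of the tissues were scaled apart, so levels are set side by side without a test. The tissues also differed in organ, preparation and Apc genotype, since crypts were released from the small intestine and tumors were whole colon tissue. The mean level was higher in tumors than in crypts for all 10 members. The share of all genes higher in tumors was not computed, so nothing is read from this count. Cdh5 had a mean of 13.6 FPKM in tumors and 0.0054 FPKM in crypts, and Esm1 had 5.80 and 0.0503 FPKM. Vegfa differed least in ratio, with 35.8 FPKM in tumors and 15.3 FPKM in crypts, and its highest crypt library (26.6 FPKM) came near its lowest tumor (28.2 FPKM). The order within crypts was Vegfa, Angpt2, Pecam1, Apln, Tek, Eng, Esm1, Kdr, Cdh5 and Flt1, and the ranges of neighbours were apart from Vegfa down to Apln and overlapped from Apln on. Of the 27 general endothelial genes, 6 passed the filter in crypts and 4 (Sox17, Myct1 and, named after their values were seen, Sox7 and Gpihbp1) were at 0 in all 6 libraries. The 6 that passed were 1 above and 5 below 0, beside 52.8% and 47.2% of all crypt genes. Their median was -0.14, which was -0.05 without wild type replicate 2, -0.04 with no filter and -0.21 with voom weights. Esam was the most abundant at a mean of 1.71 FPKM and the 1 gene of the list lower without overlap, beside 5.15% of all crypt genes. It was at 1.85, 1.73 and 1.94 FPKM in wild type and 1.65, 1.42 and 1.69 FPKM in ieCtnnb1KO. Its log2 fold change was -0.17 ± 0.14 (SE, n = 3 per group), with a limma adjusted p of 0.907. Of the 5 outside the members, the median was -0.17, and without wild type replicate 2 it was 0.00. With Cdh5 this low in crypts, the levels of the general endothelial genes that passed cannot be assigned to vessels. Of the 11 tip cell genes, 8 passed in crypts, 1 above and 7 below 0, beside 52.8% and 47.2% of all crypt genes. Of these, 0 were without overlap, beside 11.9% of all crypt genes. Their median was -0.27, which was -0.14 without ieCtnnb1KO replicate 1 and -0.15 without wild type replicate 2.

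Other genes of the same pathways were taken from lists. Their tumor counts stand beside the shares of all tumor genes, 51.3% above 0, 48.7% below 0, 11.4% higher and 10.6% lower without overlap. In tumors the 10 VEGF ligands and receptors had 7 genes above and 3 below 0, with Flt1 higher and Vegfd lower without overlap and a median log2 fold change of 0.13. That median was 0.07 without knockout replicate 3, 0.08 without APCmin/+ replicate 3 and 0.21 with the filter at 1 FPKM. Of 7 angiopoietin and TIE genes 6 were tested, 5 above and 1 below 0, with 0 without overlap and a median of 0.21, or 0.11 with no filter (7 genes). Of the 3 apelin genes 2 were tested, Apln above and Aplnr below 0, and the 1 higher without overlap was Apln, a member. Their median was 0.63, which was 0.38 without APCmin/+ replicate 3 and -0.07 with no filter (3 genes). The 10 tested of 11 Notch, arterial and venous genes were divided, 5 above and 5 below 0, with a median of 0.00 whose sign changed with the scaling. The sign also changed without APCmin/+ replicate 3 (-0.08), knockout replicate 1 (-0.07) or knockout replicate 3 (-0.02). Notch4, a Notch receptor of endothelium, was higher without overlap, at 4.97, 4.83 and 3.24 FPKM against 6.73, 6.36 and 6.24 FPKM. Notch1 was lower without overlap, at 11.3, 14.4 and 14.2 FPKM against 10.2, 8.34 and 8.11 FPKM. The log2 fold changes were 0.54 ± 0.16 for Notch4 and -0.56 ± 0.13 for Notch1 (SE, n = 3 per group), and Ephb4, the most abundant gene of the list at 56.6 FPKM, overlapped at -0.22 ± 0.11.

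Of 9 genes of endoglin and ALK1 signaling 7 were tested in tumors, with 5 above and 2 below 0, beside 51.3% and 48.7% of all genes. Of the 7, 2 were higher without overlap, beside 11.4% of all genes, and without the member Eng 1 of 6 was. The median was 0.12, which was -0.02 after quantile normalization and -0.03 without knockout replicate 3. Acvrl1, which encodes ALK1, was higher without overlap like Eng, at 7.07, 5.85 and 5.90 FPKM against 7.58, 9.09 and 8.25 FPKM. Its log2 fold change was 0.38 ± 0.12 (SE, n = 3 per group), and Id1, the most abundant gene of the list at 205.0 FPKM, overlapped at 0.12 ± 0.20. The 9 secreted inhibitors of angiogenesis had 5 genes above and 4 below 0, 4 higher and 1 lower without overlap, beside 11.4% and 10.6% of all genes, and a median of 0.19. That median was 0.02 without APCmin/+ replicate 2, 0.06 without knockout replicate 2 and 0.08 after quantile normalization. Col18a1, whose collagen is the source of endostatin, was at 56.7, 27.3 and 31.2 FPKM in APCmin/+ and at 62.4, 85.1 and 61.3 FPKM in APCmin/+;ieCtnnb1KO. The groups of Col18a1 were apart by a log2 fold change of 0.91 ± 0.28 (SE, n = 3 per group), with control replicate 1 close to the knockouts. Vash1 (0.73 ± 0.19), Serpinf1 (0.55 ± 0.16) and Timp3 (0.19 ± 0.08) were also higher and Sema3f (-0.35 ± 0.13) was lower without overlap, and Thbs1, the most abundant at 90.7 FPKM, overlapped at 0.21 ± 0.24.

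Hypoxia-induced genes were listed because Vegfa is one of them. In tumors 10 of the 12 were above 0 and 2 below, beside 51.3% and 48.7% of all genes, and 4 were higher without overlap (Car9, Higd1a, Adm and Egln3) and 0 lower, beside 11.4% and 10.6%. The median was 0.32, or 0.30 without Vegfa. The median of the 12 was 0.18 after quantile normalization. Car9, a carbonic anhydrase, was at 20.6, 16.3 and 12.2 FPKM in APCmin/+ and at 25.7, 26.8 and 29.3 FPKM in APCmin/+;ieCtnnb1KO. The groups of Car9 were apart by a log2 fold change of 0.75 ± 0.18 (SE, n = 3 per group). The others were at 0.61 ± 0.21 (Higd1a), 0.46 ± 0.18 (Adm) and 0.30 ± 0.13 (Egln3), and Ldha, the most abundant at 290.4 FPKM, overlapped at 0.37 ± 0.17. Knockout replicate 2, the knockout tumor lowest in Vegfa, was also the lowest knockout tumor in the summed level of the 12 genes, at 693.6 FPKM beside 871.9 and 946.7 FPKM in the other knockouts and 661.3, 747.7 and 579.7 FPKM in the controls. The part of these genes in the level of Vegfa was not tested.

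In crypts 11 of the hypoxia-induced genes were tested, 7 above and 4 below 0, beside 52.8% and 47.2% of all genes, with 2 higher without overlap, beside 6.79%, and a median of 0.19. That median was 0.01 without wild type replicate 1, 0.02 without ieCtnnb1KO replicate 3 and 0.32 without ieCtnnb1KO replicate 2. Their summed level was 472.5, 433.0 and 477.1 FPKM in wild type and 567.6, 582.6 and 629.2 FPKM in ieCtnnb1KO, without overlap. Ldha, the most abundant, was also without overlap, at 285, 258 and 284 FPKM against 346, 357 and 386 FPKM. The log2 fold changes were 0.40 ± 0.14 for Ldha and 0.45 ± 0.12 for Pgk1 (SE, n = 3 per group), with limma adjusted p of 0.806 and 0.757. Vegfa, which belongs to the same list, was on the other side of 0 in crypts.

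The remaining lists of vessel genes had few tested genes in crypts. Their counts stand beside the shares of all crypt genes, 52.8% above 0, 47.2% below 0 and 11.9% without overlap. The VEGF list had 3 of 10 tested with a median of -0.05 (0.11 without wild type replicate 1), the angiopoietin and TIE list 1 of 7, and the apelin list 0 of 3. The Notch, arterial and venous list had 8 of 11 tested, 2 above and 6 below 0, with a median of -0.06 (0.02 without ieCtnnb1KO replicate 3) and Ephb4 the most abundant at 23.7 FPKM. The endoglin and ALK1 list had 5 of 9 tested, 2 above and 3 below 0, with a median of -0.15 (0.04 without wild type replicate 3) and Id1 the most abundant at 72.0 FPKM. The inhibitors had 4 of 9 tested, all below 0 and 2 of them lower without overlap (Col18a1 and Sema3f), beside 5.15% of all crypt genes, with Thbs1 the most abundant at 1.48 FPKM. Their median was -0.27, but -0.49 with voom weights, -0.42 with a pseudocount of 0.1 and -0.11 with no filter.

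**Figure D5:**
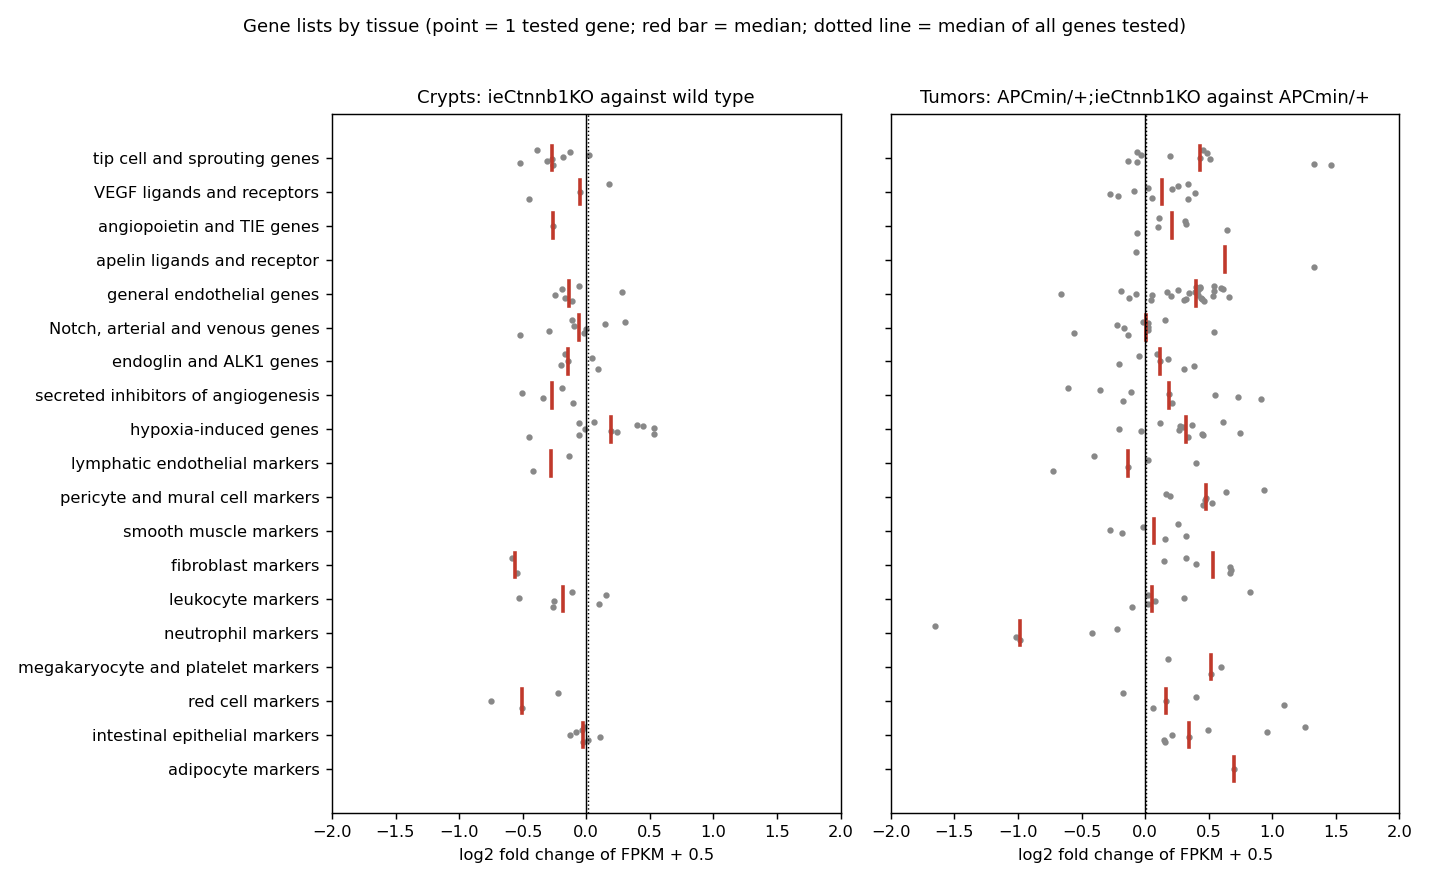
Log2 fold change of every tested gene of each list described here (grey points) and the median of the list (red bar), in crypts (left) and tumors (right), knockout against control; the dotted line is the median of all genes tested. In tumors the medians of the general endothelial, mural and fibroblast lists lie at 0.40, 0.48 and 0.53 and the neutrophil median at -0.98, whereas few of these genes were tested in crypts.

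Markers of other cells of the tumor were set beside the endothelial genes, and their counts stand beside the same shares of all tumor genes, 51.3% above 0, 11.4% higher and 10.6% lower without overlap. All 8 pericyte and mural cell markers were above 0 in tumors, 3 were higher without overlap (Ndufa4l2, Higd1b and Cspg4), and the median log2 fold change was 0.48. Their summed level was 53.9, 38.0 and 41.0 FPKM in APCmin/+ and 59.5, 60.2 and 64.0 FPKM in APCmin/+;ieCtnnb1KO, without overlap, with 0 markers at 0. Rgs5, the most abundant at 16.5 FPKM, overlapped at 0.47 ± 0.19, and Ndufa4l2 was higher without overlap at 0.94 ± 0.27 (SE, n = 3 per group). All 6 fibroblast markers were above 0, 3 without overlap (Col1a1, Dcn and Pdgfra), with a median of 0.53. Their summed level was 345.1, 216.5 and 208.2 FPKM in APCmin/+ and 345.9, 451.8 and 357.6 FPKM in APCmin/+;ieCtnnb1KO, so that control replicate 1 was just under the lowest knockout. Col1a1, the most abundant at 120.8 FPKM, was higher at 0.67 ± 0.25 (SE, n = 3 per group). The 6 smooth muscle markers were divided, 3 above and 3 below 0, 2 of them higher without overlap (Acta2 and Tagln), with a median of 0.07, between -0.02 (without knockout replicate 1) and 0.20 (without APCmin/+ replicate 2), and Acta2, the most abundant at 100.3 FPKM, was at 0.32 ± 0.12 (SE, n = 3 per group). Their summed level overlapped, at 150.9, 168.5 and 129.1 against 179.6, 152.4 and 174.1 FPKM.

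Of the 7 epithelial markers, all were above 0 in tumors and 6 were higher without overlap, beside 11.4% of all genes, with a median of 0.35, which was 0.11 after quantile normalization. Their summed level was 3254, 3140 and 2853 FPKM in APCmin/+ and 3730, 3710 and 3798 FPKM in APCmin/+;ieCtnnb1KO, without overlap, and Krt8 was the most abundant at 1588 FPKM. Krt20 (0.96 ± 0.25), Vil1 (0.49 ± 0.17) and Krt8 (0.35 ± 0.19) were higher without overlap (SE, n = 3 per group). All 7 markers were present in crypts too, at summed levels between 3288 and 4383 FPKM, where their median was -0.03 (0.03 without wild type replicate 3) and the summed levels overlapped.

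Of the lymphatic endothelial markers 5 of 6 were tested in tumors, 2 above and 3 below 0, with 1 lower without overlap and a median of -0.14. Prox1, a transcription factor of lymphatic endothelium, was that gene and the most abundant at 54.8 FPKM, at 55.7, 63.4 and 87.4 FPKM in APCmin/+ and at 38.1, 46.8 and 37.7 FPKM in APCmin/+;ieCtnnb1KO. Its log2 fold change of -0.73 ± 0.18 (SE, n = 3 per group) ran opposite to that of most general endothelial genes. Prox1 also passed the filter in crypts, where endothelial genes were low, so its level cannot be assigned to lymphatic vessels. The other 4 tested genes were 2 above and 2 below 0 with 0 without overlap, and the median of the list lay between -0.46 (without APCmin/+ replicate 1) and -0.02 (without APCmin/+ replicate 3). The summed level of the list, most of it Prox1, was 73.7, 82.2 and 107.4 FPKM against 58.7, 65.7 and 61.1 FPKM, so its difference is that of 1 gene.

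All 5 neutrophil markers were below 0 in tumors, 3 without overlap, with a median of -0.98, which was -0.64 without knockout replicate 2. Their summed level was 209.3, 494.9 and 334.7 FPKM in APCmin/+ and 207.3, 100.9 and 198.1 FPKM in APCmin/+;ieCtnnb1KO, with control replicate 1 just above the highest knockout. S100a9, the most abundant at 137.5 FPKM, had a log2 fold change of -1.01 ± 0.40, S100a8 had -0.98 ± 0.38 and Cxcr2 had -0.42 ± 0.17 (SE, n = 3 per group), all without overlap. Of 7 leukocyte markers 6 were tested, 5 above and 1 below 0, with 0 without overlap and a median of 0.05, which was -0.02 without APCmin/+ replicate 2 and 0.24 without knockout replicate 3. Their summed level overlapped, at 54.2, 39.4 and 49.3 against 56.5, 63.6 and 38.3 FPKM, with Cd68 the most abundant at 19.2 FPKM. Of 5 megakaryocyte and platelet markers 3 were tested, all above 0 and overlapping, with Pf4 the most abundant at 21.4 FPKM. Their median was 0.52, but 0.09 without knockout replicate 3, 0.18 with no filter and 0.75 without knockout replicate 1. Their sum overlapped, at 26.3, 17.2 and 26.3 against 25.0, 36.0 and 44.4 FPKM.

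Red cell markers, a measure of blood in the tissue, varied widely between libraries. Their summed level in tumors was 328.2, 345.8 and 246.0 FPKM in APCmin/+ and 680.2, 52.9 and 1115 FPKM in APCmin/+;ieCtnnb1KO. Knockout replicate 2 was the lowest and knockout replicates 1 and 3 were the highest. Hbb-bs was the most abundant at 236.9 FPKM, 4 of the 5 genes were above 0 with 0 without overlap, and the median of 0.17 was -0.05 after quantile normalization, -0.68 without knockout replicate 3 and 1.5 without knockout replicate 2. Of the adipocyte markers 1 of 4 was tested, Fabp4, a gene also made by capillary endothelium, which was higher without overlap at 0.70 ± 0.17 (SE, n = 3 per group), while Adipoq, named after its values were seen, was at 0 in all tumors. The part of any of these cell types in the levels of Esm1, Apln and the other members was not tested.

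Markers of cells outside the epithelium were also measured in crypts. The shares of all crypt genes were 52.8% above 0, 47.2% below 0 and 5.15% lower without overlap. Pericyte and mural cell markers summed to between 0.524 and 1.10 FPKM, smooth muscle markers to between 0.375 and 0.923 FPKM and neutrophil markers to between 0.0592 and 0.461 FPKM, with 0 genes tested in each. The most abundant were Pdgfrb at 0.376, Tagln at 0.403 and Csf3r at 0.0998 FPKM. Megakaryocyte and platelet markers (Itga2b, 0.237 FPKM) and adipocyte markers (Fabp4, 0.0163 FPKM) also had 0 genes tested. Of the fibroblast markers 2 of 6 were tested, both below 0, Col3a1 without overlap, with a median of -0.56 (-0.28 with no filter, 6 genes, and -0.90 with voom weights) and Dcn the most abundant at 2.74 FPKM. The lymphatic list had 2 of 6 tested, both below 0, with a median of -0.28 (-0.10 without wild type replicate 2 and -0.46 with voom weights) and Lyve1 the most abundant at 1.14 FPKM. Of the leukocyte markers 6 of 7 were tested, 2 above and 4 below 0, with a median of -0.18 (-0.04 without ieCtnnb1KO replicate 3 and -0.07 without wild type replicate 3), a summed level between 19.5 and 25.5 FPKM, Cd79a the most abundant at 8.61 FPKM and Ptprc lower without overlap at -0.27 ± 0.13 (SE, n = 3 per group) and a limma adjusted p of 0.860. The red cell list had 3 of 5 tested, all below 0, with a summed level between 4.81 and 18.5 FPKM and Hbb-bs the most abundant at 6.24 FPKM. Its median was -0.50, between -0.93 (without ieCtnnb1KO replicate 2) and -0.18 (without ieCtnnb1KO replicate 3).

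The genes most like Esm1 over the 6 tumor libraries, by Pearson's r of log2(FPKM + 0.5) among 14551 genes with a mean of at least 1 FPKM, were Atp2c2 (r = 0.992), Utp11 (r = 0.990) and Prkaca (r = 0.987). The 6 libraries comprise both groups, so these r values carry the difference between the groups and are a description. Atp2c2 was at 9.03, 9.40 and 10.1 FPKM in APCmin/+ and at 14.1, 15.9 and 15.8 FPKM in APCmin/+;ieCtnnb1KO, so its knockout tumors were all above its controls, as for Esm1. The genes most like Pecam1 were C2cd4a (r = 0.999), Sod3 (r = 0.996) and Ccdc107 (r = 0.996). Sod3 was at 17.6, 13.8 and 13.8 FPKM in APCmin/+ and at 21.6, 23.1 and 23.9 FPKM in APCmin/+;ieCtnnb1KO, with control replicate 1 the highest control, as for Pecam1.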

How the data were processed

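RNA-seq of 6 crypt and 6 tumor libraries was re-examined from the tables the authors deposited, whose values are FPKM per gene and library, 1 table for each tissue. Per the paper's methods, 150 base paired-end reads were cleaned, aligned with Hisat2 and counted per gene with featureCounts; the notes deposited with the data also name cutadapt, HISAT2, Cufflinks 2.2.1, DESeq2 and mm10 without a role. How FPKM were computed and whether counting used the strand was not stated. The deposited tables also hold a gene length in bases, which the authors did not define.

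Multiplying FPKM by that length gave whole multiples of 1 step in each library, within 0.01 fragment for 100% of non-zero values, from which fragments and depth (14457896 to 16156712) were recovered. Genes with a mean of at least 0.5 FPKM in the 6 libraries of a tissue were tested on log2(FPKM + 0.5) with limma 3.58.1 (R 4.3.3, variance trend, no covariates) and Benjamini-Hochberg adjustment over all genes tested, at a threshold of 0.05. Single members in crypts also had an exact two-sided permutation test. The procedure was tested on simulated data. Tables and figures used Python 3.11.15, numpy 2.4.6, pandas 2.3.3 and matplotlib 3.10.9.

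Members and lists were chosen with earlier results of these data known. The 20 lists beside the members held 155 distinct genes found once in the tables, of which 63 were tested in crypts and 139 in tumors; 2 symbols were not in the tables and 1 was left out because it stood for more than 1 gene. Results of 1 list are left out. Lists were described by counts and medians without a set test. Named genes were the members, Ctnnb1, from each list and tissue the most abundant gene and in each direction as many as 3 genes of the greatest absolute log2 fold change among those with a mean of at least 1 FPKM and groups that did not overlap, and the 3 genes most correlated with Esm1 and with Pecam1 in tumors. Aplnr, Vegfd, Egln3, Nid2, Pdgfb, Timp3, Higd1b and Cspg4 in tumors, Tagln in tumors and Col18a1, Sema3f and Col3a1 in crypts were named after their values were seen. Alternatives were a pseudocount of 0.1 or 1, no filter or a mean of at least 1 FPKM, 3 other scalings, no variance trend, robust moderation, voom weights on recovered fragments, sex as a term, a replicate block and leaving out each library. Standard errors are moderated by limma, which draws the variance of each gene toward a trend over all genes. They can therefore be larger or smaller than the spread of the gene's own libraries would give. Standard errors cover differences between mice, and fragments without molecular identifiers are not independent molecules.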

Additional observations from a re-analysis of the deposited data

Results flagged for a closer look

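Col18a1, the gene of the collagen that gives endostatin, stood out because its crypt and tumor groups were apart in opposite directions. Its log2 fold change was -0.3427 in crypts, where every ieCtnnb1KO library was below every wild type library, and 0.908 in tumors, where every APCmin/+;ieCtnnb1KO library was above every APCmin/+ library. Its crypt level was low, with a mean of 0.562 FPKM, against 54.0 FPKM in tumors. The difference between the tissues was not tested.

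Esam, a general endothelial gene, stood out in the same way, with a log2 fold change of -0.1676 in crypts and 0.6572 in tumors and no overlap between the groups in either tissue. Of all genes, 5.15% were lower without overlap in crypts and 11.4% higher in tumors, and limma called no gene in crypts. The share of all genes apart in opposite directions was not computed, so nothing is read from Esam or Col18a1 here. The difference between the tissues was not tested.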

How the results depend on the processing

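Of the 18 alternatives in tumors, 12 can move a log2 fold change: other pseudocounts and scalings, voom weights and leaving out each library. Over these, Esm1 lay between 1.30 and 1.64 and Apln between 1.10 and 1.51, and Angpt2, Tek and Cdh5 crossed 0 in 3, 1 and 1. Since the tumor contrast chose the members, these ranges are a description. The median of the members in tumors ranged from 0.22 to 0.28 and that of the 24 general endothelial genes outside them from 0.30 to 0.46. The count of genes with an adjusted p under 0.05 in tumors was 0 except with no variance trend, where it was 1 (Mir3473e, adjusted p 0.0480), and 0 to 0 when leaving out each library. In crypts that count was 0 to 3 when leaving out each library, the 3 being Pgc, Gkn2 and Gkn1 without wild type replicate 3, and 0 in the other alternatives. The median of the members in crypts was -0.01 with no filter (10 genes), -0.3566 with the filter raised to 1 FPKM (2 genes) and -0.3603 with voom weights, against -0.2645, and between -0.2698 and -0.1654 when leaving out each library. That of general endothelial genes outside the members in crypts was -0.0449 with no filter (20 genes), against -0.1676, and between -0.191 and 0.0042 when leaving out each library, the highest being without wild type replicate 2. Apart from the changed numbers of genes with other filters, the cause was not tested.

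The labels do not say whether replicate numbers pair libraries. Correlations of same-numbered libraries within a tissue, after removing group means, were -0.047, -0.122 and 0.037 in crypts and 0.054, -0.090 and 0.053 in tumors. Such low values cannot exclude pairing, and replicate 3 was from a female mouse in both tumor groups. With the replicate block the counts were still 0 and 0, with 732 and 1882 genes at an unadjusted p under 0.05. Sex as a term gave 0 genes in tumors (2288 unadjusted) and could not be fitted in crypts, where all mice were male.

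With 3 mice per group, the smallest exact permutation p is 0.1. In crypts, 7 of the 10 members had 24 fragments or fewer in every library.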
